A study of Rattus norvegicus with 3 samples.

Results

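The levels of 7 regulators of the BCL2 family were followed across the cells of the rat thymus. They were taken by name as Bcl2, Bcl2l1, Bcl2l11, Mcl1, Bax, Bak1 and Bbc3, and each matched 1 of the 34034 features of the count tables. All 7 of the 7 genes had UMIs (tags that let each captured RNA be counted once) in both libraries, so none was lost to a filter. The tissue came from 8-week-old Lewis rats, an inbred strain, with no treatment named in the labels. The thymocyte library was made after digestion with collagenase D and DNase I. The stromal library was made after Liberase TH and DNase I and was enriched for CD45-negative cells on magnetic columns and by flow sorting. The number of animals behind each library is not given in the sources used here. A spatial section of the same organ was not analysed here for these genes.

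Members of this family set whether the outer membrane of the mitochondrion is opened, the step that releases cytochrome c and commits a cell to apoptosis. Bax and Bak1 encode the effectors that form the pore. Bcl2, Bcl2l1 (which encodes BCL-XL) and Mcl1 encode the pro-survival proteins that restrain them. Bcl2l11 (BIM) and Bbc3 (PUMA) encode BH3-only proteins, which bind the pro-survival proteins and set the effectors free. In the thymus most developing T cells die, either without a selecting signal or after too strong a one, and BIM is known for its part in the removal of self-reactive cells.

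Cells were grouped by the authors' labels. These were the projected labels, with the initial cluster standing in for cells that had none. In the usual names of the thymus, DN cells carry neither CD4 nor CD8, DP cells carry both, and DP-P, Pre DP-sig, DP-sig, immature and mature labels follow the course of selection. The thymocyte library held 8546 annotated cells with 64440495 UMIs, and the stromal library 13226 annotated cells with 131624350 UMIs. Labels of at least 20 cells numbered 21 and 24, with median depths of 3205.5 to 23597 and of 2648 to 18085 UMIs per cell. Of the barcodes, 38 occurred in both libraries. Levels are given as CPM, the UMIs of a gene per 1000000 UMIs of the label, with exact 95% Poisson intervals. Since each library is 1 sample, no test was possible, and the intervals cover counting error only. A member was called higher or lower in a comparison at a ratio of at least 2-fold, on at least 20 UMIs over both groups. The labels were themselves made from the expression of these cells, so a difference between labels is a description. Levels were not corrected for gene length and are compared between labels, never between genes.

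The labels were checked against marker genes. Rag1, which recombines the antigen receptor genes, had 1952 CPM in DP and a UMI in 95.9% of its cells at a median of 3205.5 UMIs. In B+myeloid, Rag1 had 31.0 CPM and a UMI in 11.8% of cells at a median of 11506.5 UMIs. Cd8b, a second DP gene, had 1372 CPM in DP and 58.1 CPM in B+myeloid, with a UMI in 22.9% of the latter's cells. The source of these UMIs in B+myeloid was not tested. The label gdT lay mostly in the cluster DN, with 111 of 128 cells there, and its summed DN markers (734 CPM) were higher than those of DN itself (504 CPM). It is therefore called the label gdT below. In the stromal library the label TEC:aaTEC2 held 18562 CPM of fibroblast markers against 1113 CPM of epithelial markers. The stromal label Thymocyte held 8002 CPM of fibroblast markers beside 3160 CPM of DP markers. The part of RNA from other cells in the members' levels of this label was not tested.

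Bcl2 had its lowest levels of the library in DN, DP-P and DP and its highest in the labels Immature CD4-2, CD4-1 and CD8-2. It had 35.4 CPM in DN (95% interval 31.9 to 39.1), 59.0 CPM in DP-P and 60.8 CPM in DP (57.3 to 64.4). It had 206 CPM in Pre DP-sig and 359 CPM in DP-sig. DN, DP-P and DP therefore lay below all other labels of the library, the nearest being B+myeloid (63.6 CPM), which was not apart from DP. The immature labels had 306 CPM in CD8-1, 541 CPM in CD4-1, 492 CPM in CD8-2 and 598 CPM in CD4-2. The mature labels had 343 to 410.3 CPM, below 3 of the immature labels and above Immature CD8-1. The highest label, Immature CD4-2, stood 16.9-fold above DN (14.8 to 19.4). Of the 20 pairs of neighbours in the order of labels, 4 were apart beyond counting error, among them Immature CD8-2 over Mature CD8-1. In the later labels Bcl2 was lower in Treg (170.4 CPM), AgoSel2 (165 CPM), Mature cycling T (176 CPM) and the label gdT (187 CPM) than in AgoSel1 (393 CPM) and Pre-Treg (365 CPM).

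**Figure D1:**
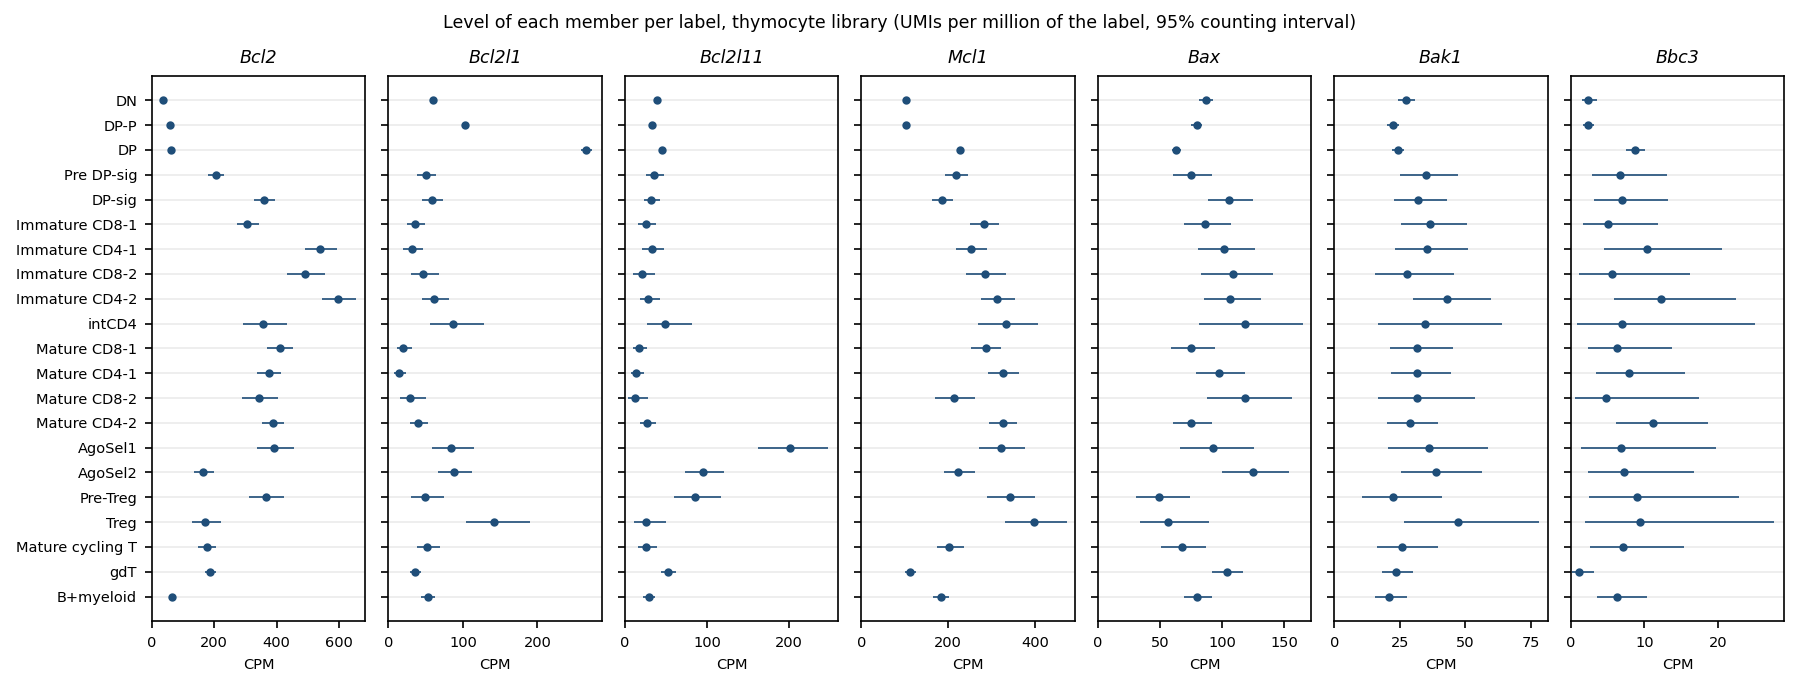
Level of each of the 7 genes (x axis, CPM, a separate scale per gene) in the 21 labels of the thymocyte library (y axis), with exact 95% Poisson intervals for counting error. Bcl2 is at 35.4 to 60.8 CPM in DN, DP-P and DP and at 206 CPM or more from Pre DP-sig to the mature labels, while Bcl2l1 peaks at 266 CPM in DP.

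Bcl2l1 was highest in DP, where Bcl2 was low. DP had 266 CPM on 5022 UMIs (258 to 273), the highest level of the 21 labels, and DP-P had 103 CPM. DN had 59.8 CPM, Pre DP-sig 50.0 CPM and DP-sig 58.2 CPM. The step thus lay between DP and Pre DP-sig, the label in which Bcl2 was already 3.38-fold above DP (2.94 to 3.89). The immature labels had 31.3 to 61.3 CPM and Mature CD4-1 had 13.8 CPM on 14 UMIs, the lowest level. DP stood 19.3-fold above it (11.5 to 35.3). Treg, the regulatory T cell label of 37 cells, was second at 142 CPM. That label also held 445 CPM of the B cell gene Cd79a, whose part in its levels was not tested. Of the 20 pairs of neighbours 2 were apart, DP over Treg and Treg over DP-P.

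In the mature labels Bcl2l1 was set beside Rag1, since DP cells were the most numerous of the library and their RNA could reach other droplets. Rag1 had 10.8 CPM in Mature CD4-1, 21.1 CPM in Mature CD8-1, 12.1 CPM in Mature CD8-2 and 199 CPM in Mature CD4-2. At the ratio of the 2 genes in DP, that Rag1 level would go with 1.47, 2.87, 1.64 and 27.1 CPM of Bcl2l1. The measured Bcl2l1 levels were 13.8, 20, 29.0 and 39.9 CPM in the same order. Mature CD4-2 thus had the highest value of the mature labels for Rag1 as well as for Bcl2l1. Its Bcl2l1 level rested on 50 UMIs and that of Mature CD8-2 on 12, too few to set these labels apart. The part of DP RNA in the Bcl2l1 level of Mature CD4-2 was not tested.

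The make-up of the pro-survival UMIs differed at the same steps. Counted as a share of the UMIs of Bcl2, Bcl2l1 and Mcl1, Bcl2l1 held 30.3% in DN, 38.8% in DP-P and 47.9% in DP (exact 95% interval 46.9 to 48.8). It held 10.6% in Pre DP-sig, 9.64% in DP-sig and 1.93% in Mature CD4-1. Bcl2 held 11% in DP, 43.5% in Pre DP-sig, 59.5% in DP-sig and 65.6% in Immature CD4-1 (61.7 to 69.3). The share of Mcl1 varied less, from 30.6% in Immature CD4-1 to 61.1% in B+myeloid. The summed level of the 3 genes was 198 CPM in DN, 265 CPM in DP-P, 555 CPM in DP, 473 CPM in Pre DP-sig and 604 CPM in DP-sig. It was therefore lower before the DP label than in it and in the labels just after it. These shares depend on how well each gene is captured and are read only across labels.

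**Figure D2:**
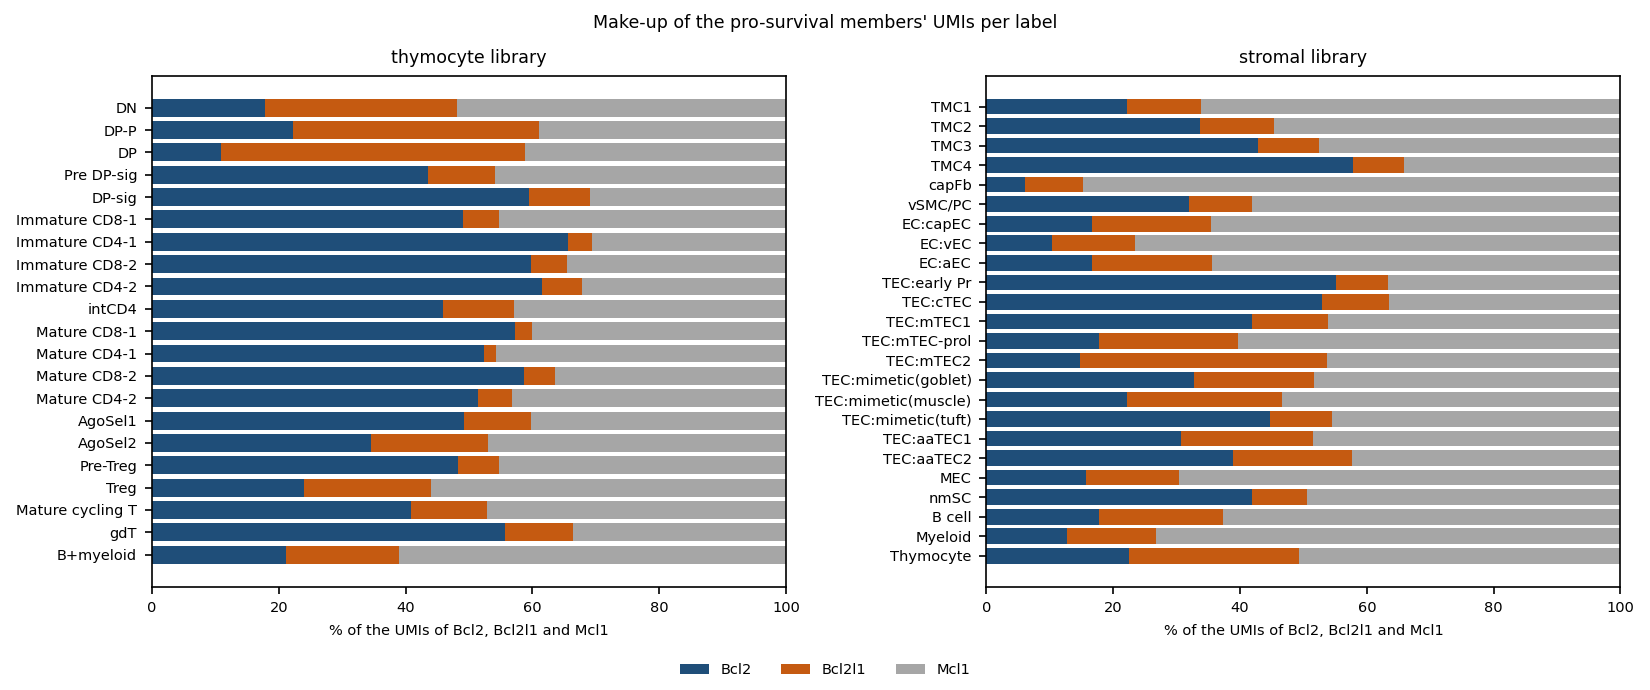
Share (x axis, percent) of the summed UMIs of Bcl2, Bcl2l1 and Mcl1 held by each gene in every label of at least 20 cells (y axis), thymocyte library on the left and stromal library on the right. Bcl2l1 holds 47.9% in DP and 38.8% in DP-P, and Bcl2 holds 65.6% in Immature CD4-1 and 57.9% in TMC4.

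The sequences before the annotated starts of the 3 genes with the widest ranges are shown because their levels peaked in different labels. They are the 250 bases before the start in RefSeq's GRCr8, read 5′ to 3′ on the gene's strand, with motif matches in capitals. In all, 5 motifs were searched on both strands. These were the nuclear receptor site AGGTCA, the forkhead site GTAAACA, the STAT site TTCNNNGAA, the AP-1 site TGACTCA and the ETS site CCGGAAGT.
Bcl2, chr13:23366901-23367150, minus strand: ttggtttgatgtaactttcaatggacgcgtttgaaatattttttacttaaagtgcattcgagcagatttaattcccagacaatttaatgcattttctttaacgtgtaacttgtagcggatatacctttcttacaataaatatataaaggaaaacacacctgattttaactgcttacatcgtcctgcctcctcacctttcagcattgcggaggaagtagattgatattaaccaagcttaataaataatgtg
Bcl2l1, chr3:161764776-161765025, minus strand: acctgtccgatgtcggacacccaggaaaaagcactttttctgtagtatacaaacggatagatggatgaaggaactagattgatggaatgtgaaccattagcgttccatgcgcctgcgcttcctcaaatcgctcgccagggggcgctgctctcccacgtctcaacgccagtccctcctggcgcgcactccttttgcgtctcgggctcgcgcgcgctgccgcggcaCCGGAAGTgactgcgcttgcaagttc
Bcl2l11, chr3:135819792-135820041, plus strand: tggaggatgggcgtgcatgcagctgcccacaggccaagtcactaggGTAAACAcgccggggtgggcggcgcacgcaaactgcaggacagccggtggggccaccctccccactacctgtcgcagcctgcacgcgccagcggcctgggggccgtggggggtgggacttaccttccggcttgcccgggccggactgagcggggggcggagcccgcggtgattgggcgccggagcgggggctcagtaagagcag
The window of Bcl2 held none of the 5 motifs and was 33.6% G or C. The window of Bcl2l1 held the ETS site, found in 3.1% of 33469 such windows, and was 57.6% G or C. The window of Bcl2l11 held the forkhead site, found in 3.21% of the windows, and was 72.0% G or C. The shares of windows with the other motifs were 14.1% for the nuclear receptor site, 7.67% for the STAT site and 4.05% for the AP-1 site. Of Bcl2l1, 3 further starts are listed, and 2 of those windows, which overlap, held the STAT site. Mcl1 and Bak1, whose windows held no match, are not shown, and Bax and Bbc3 were not matched in the table. UMI counts do not show which start was used, and a match is not a binding site.

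Mcl1, the pro-survival gene with a short-lived product, varied less than Bcl2 and Bcl2l1. Its level was 102 CPM in DN and 103 CPM in DP-P, 228 CPM in DP, and 213 to 327 CPM in the mature labels. The highest values were 398 CPM in Treg and 342 CPM in Pre-Treg, so that the range over the 21 labels was 3.88-fold (3.2 to 4.67). The label gdT (113 CPM) stood with DN and DP-P at the low end. Only 1 of the 20 pairs of neighbours was apart, B+myeloid over the label gdT. Genes that respond to tissue handling, such as Fos and Jun, summed to 327 CPM in DP, 392 CPM in DN, 1051 CPM in Treg and 1555 CPM in Immature CD4-1, and their part in the level of Mcl1 was not tested.

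Among the BH3-only genes, Bcl2l11 was highest in the labels AgoSel1, AgoSel2 and Pre-Treg. AgoSel1, a label of 70 cells, had 201 CPM on 89 UMIs (162 to 248), AgoSel2 94.7 CPM and Pre-Treg 85.0 CPM. The label gdT had 52.9 CPM, DP 44.7 CPM, DN 39.0 CPM and DP-P 33.2 CPM. DP-sig had 31.8 CPM, which was the median label, and Treg had 25.2 CPM on 8 UMIs. The mature labels lay at 12.1 to 27.1 CPM, below AgoSel1 by up to 16.7-fold (6.88 to 52.5). The listed markers of signalled cells were Cd69, Nr4a1, Egr2, Cd5, Itm2a and Cd53. They summed to 2247 CPM in AgoSel1, 1444 CPM in DP-sig and 149 CPM in DP. Of these sums, Nr4a1 alone gave 1117 CPM in AgoSel1 and 338 CPM in DP-sig. DP-sig was thus above DP in the sum of those genes and not in Bcl2l11.

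Bbc3 was rare, with 346 UMIs in the whole thymocyte library and a UMI in 3.71% of cells. DP had 8.72 CPM on 165 UMIs, and DP-P and DN had 2.34 and 2.4 CPM. The label gdT had 1.1 CPM on 3 UMIs. The highest value, 12.3 CPM in Immature CD4-2, rested on 10 UMIs, and no pair of neighbours was apart. Neighbours are the closest values by construction, so labels further apart in the order could still differ. Immature CD4-2 stood 11.1-fold above the label gdT (2.86 to 62.9).

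The effectors varied least. Bax ranged from 49.2 CPM in Pre-Treg to 125 CPM in AgoSel2, a ratio of 2.53 (1.57 to 4.25). It had 63.0 CPM in DP, 79.5 CPM in DP-P, 106 CPM in DP-sig and 75.0 to 118 CPM in the mature labels. Bak1 ranged from 20.9 CPM in B+myeloid to 47.3 CPM in Treg on 15 UMIs. It had 24.2 CPM in DP and 27.7 to 42.9 CPM in the immature labels. For neither gene was any of the 20 pairs of neighbours apart.

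Against DP, the comparisons share the DP cells, so their values are given side by side. In Pre DP-sig, 2 of 7 members were past 2-fold, as were 13.7% of all genes tested. These were Bcl2 at 3.38 times the DP level and Bcl2l1 at 0.188 times (0.143 to 0.243). In DP-sig the same 2 of 7 passed, with a background of 20.6%. Bcl2 was there 5.91 times the DP level (5.29 to 6.59) and Bcl2l1 0.219 times (0.172 to 0.275). The 4 immature labels together also had these 2 of 7 past 2-fold, with a background of 24.5%, at 7.78 times for Bcl2 (7.2 to 8.41) and 0.162 times for Bcl2l1. With cells thinned to 1000 UMIs, the ratios of Bcl2l1 were 0.135 in DP-sig and 0.103 in the immature labels. In the 4 mature labels 3 of 7 passed, with a background of 30.2%. Bcl2 had 6.33 times the DP level (5.85 to 6.85), Bcl2l1 0.0985 times (0.0796 to 0.121) and Bcl2l11 0.425 times (0.328 to 0.544). The call of Bcl2l11 was lost with thinned cells, with initial clusters as labels and with mitochondrial, ribosomal and haemoglobin genes left out of the totals, and its ratio ranged from 0.409 to 0.828 over the alternatives. Those genes held 37.2% of UMIs in the mature labels and 24.6% in DP, which shifts every ratio by 0.26 on the log2 scale.

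The other members stayed within 2-fold of DP. In the mature labels Mcl1 was 1.33 times the DP level (1.24 to 1.42), Bax 1.37 times (1.2 to 1.55) and Bak1 1.26 times (1.02 to 1.56). The median gene of that comparison stood at -0.32 on the log2 scale, so these 3 members lay above the median gene. Bax was 1.67 times the DP level in DP-sig (1.39 to 2) and 1.58 times in the immature labels (1.39 to 1.79). Bak1 was 1.5 times the DP level in the immature labels, and 2.45 times with thinned cells. Of the comparisons with DP, those of DP-sig and the immature labels gave the largest ratios of Bax.

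**Figure D3:**
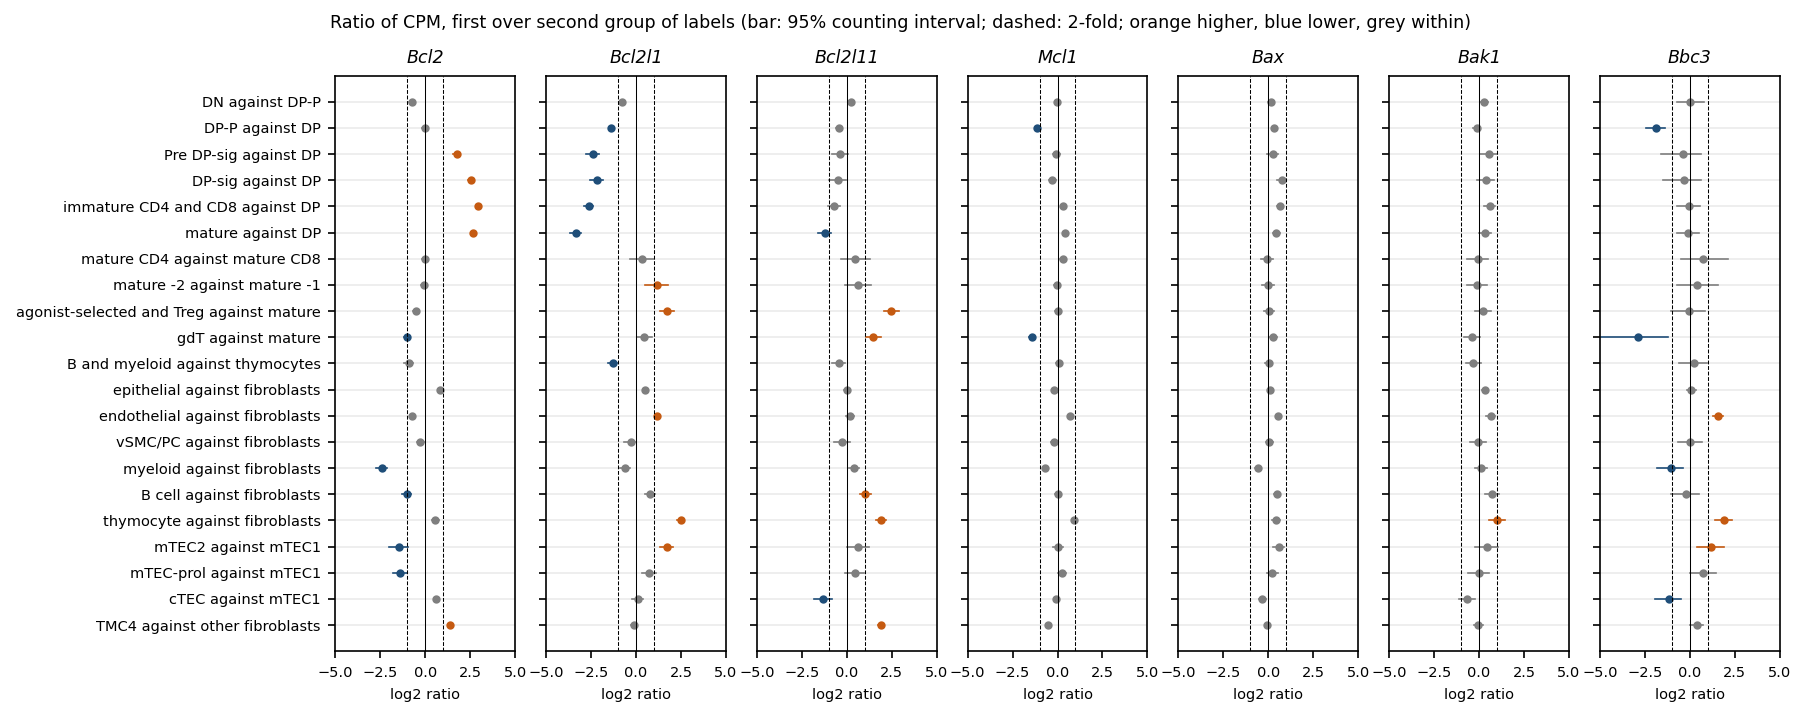
Ratio of CPM in the first over the second group of labels (x axis, log2 scale) for the 7 genes in the 11 comparisons of the thymocyte library and the 10 of the stromal library (y axis), where fibroblasts means the labels TMC1 to TMC4 and capFb. Points past the dashed lines differ by at least 2-fold, and bars are 95% intervals for counting error. Bcl2 lies right and Bcl2l1 left of the lines in the comparisons of Pre DP-sig, DP-sig, immature and mature labels with DP.

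Before DP, the cycling DP-P label had 3 of 7 members past 2-fold, all lower, with a background of 39% of genes. Bcl2l1 was 0.388 times the DP level (0.367 to 0.409), Mcl1 0.453 times (0.428 to 0.479) and Bbc3 0.268 times (0.185 to 0.381). The calls of Bcl2l1 and Mcl1 were lost with cells thinned to 1000 UMIs, with initial clusters as labels and in cells below the median UMIs of their label. Their ratios reached 0.548 for Bcl2l1 with thinned cells and 0.523 for Mcl1 with initial clusters. Between DN and DP-P none of the 7 passed, with a background of 7.74%. Bcl2l1 was 0.581 times as high in DN (0.53 to 0.637) and Bcl2 0.599 times. With initial clusters as labels these ratios were 0.357 and 1.22, so the direction of Bcl2 depended on the labels. Cycling genes summed to 6919 CPM in DP-P, 4077 CPM in DN and 408 CPM in DP, and their part in these ratios was not tested.

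Among the late labels the differences lay in Bcl2l11 and Bcl2l1. The labels AgoSel1, AgoSel2, Pre-Treg and Treg together, against the mature labels, had 2 of 7 members past 2-fold, with a background of 8.02%. Bcl2l11 was 5.56 times as high (4.21 to 7.42) and Bcl2l1 3.31 times (2.56 to 4.31). With cells thinned to 1000 UMIs the ratio of Bcl2l1 was 1.996 and its call was lost. Mcl1 had 303 CPM on both sides, a ratio of 1.00 (0.903 to 1.11). These are pooled values. Treg, with 25.2 CPM of Bcl2l11, lay within the range of the mature labels, and Mcl1 ran from 224 CPM in AgoSel2 to 398 CPM in Treg. Between mature CD4 and mature CD8 labels none of the 7 passed, with a background of 6.39%. Of the later (-2) against the earlier (-1) mature labels 1 of 7 passed, with a background of 6.42%. That was Bcl2l1, at 2.21 times (1.43 to 3.48) on 62 and 33 UMIs, and Mature CD4-2 is the label with 199 CPM of Rag1. The call was lost with the totals without mitochondrial, ribosomal and haemoglobin genes, and in cells below the median UMIs, where the ratio was 1.29. With cells thinned to 1000 UMIs the ratio stayed past 2-fold, but no member was called on at least 20 UMIs.

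The label gdT, against the mature labels, had 4 of 7 members past 2-fold, with a background of 30.7%. Bcl2 was 0.487 times as high (0.439 to 0.539), Mcl1 0.372 times (0.327 to 0.423) and Bcl2l11 2.78 times (2.08 to 3.77). Bbc3, on 3 UMIs, was 0.133 times as high (0.0261 to 0.429). The call of Bcl2 was lost without the cells of highest UMIs and with cells thinned to 1000 UMIs, at up to 0.522 times. Cycling genes summed to 2248 CPM in the label gdT, against 170 to 1542 CPM in the mature labels. B+myeloid, against all thymocyte labels, had 1 of 7 past 2-fold, with a background of 46.6%, which was Bcl2l1 at 0.405 times (0.338 to 0.483).

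The initial clusters divided several labels in the levels of the members. Within the label DP, Bcl2l1 had 244 CPM in the cluster DP1 and 316 CPM in DP2, where Bcl2 had 54.1 and 57.4 CPM. The 78 cells labelled DP in the cluster Early SP had 241 CPM of Bcl2 (201 to 286) and 182 CPM of Bcl2l1 (148 to 221). No whole label reached these levels of both genes. Within DN, Bcl2l1 had 37.4 CPM in the cluster DN, 109 CPM in DP-P2 and 154 CPM in DP-P3. Within DP-P it had 58.8 CPM in the cluster DN, 127 CPM in DP-P1 and 213 CPM in DP-P3. Bcl2l1 therefore differed more between clusters than between the labels DN and DP-P. In AgoSel1, Bcl2l11 had 269 CPM in the 38 cells of Early SP (201 to 352) and 147 CPM in the 32 cells of Mature SP (103 to 203).

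Shares of cells with a UMI were compared with each cell thinned to 1000 UMIs. Bcl2 was detected in 4.43% of DP cells (3.89 to 5.03), 27.1% of DP-sig cells and 37.6% of Immature CD4-1 cells. Without thinning the shares were 12.8%, 60.3% and 78.2%. Bcl2l1 was detected in 23.0% of DP cells (21.9 to 24.2), 13.9% of DP-P cells and 3.39% of DP-sig cells. The unthinned share of Bcl2l1 was 76.8% in DP-P and 53.8% in DP, the opposite order, at median depths of 15439 and 3205.5 UMIs. Bcl2l11 was detected in 14.3% of thinned AgoSel1 cells (7.07 to 24.7) and 4.18% of DP cells. In the labels named here the thinned shares of the 3 genes had the order of the CPM. A fixed depth largely gives that order by construction.

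**Figure D4:**
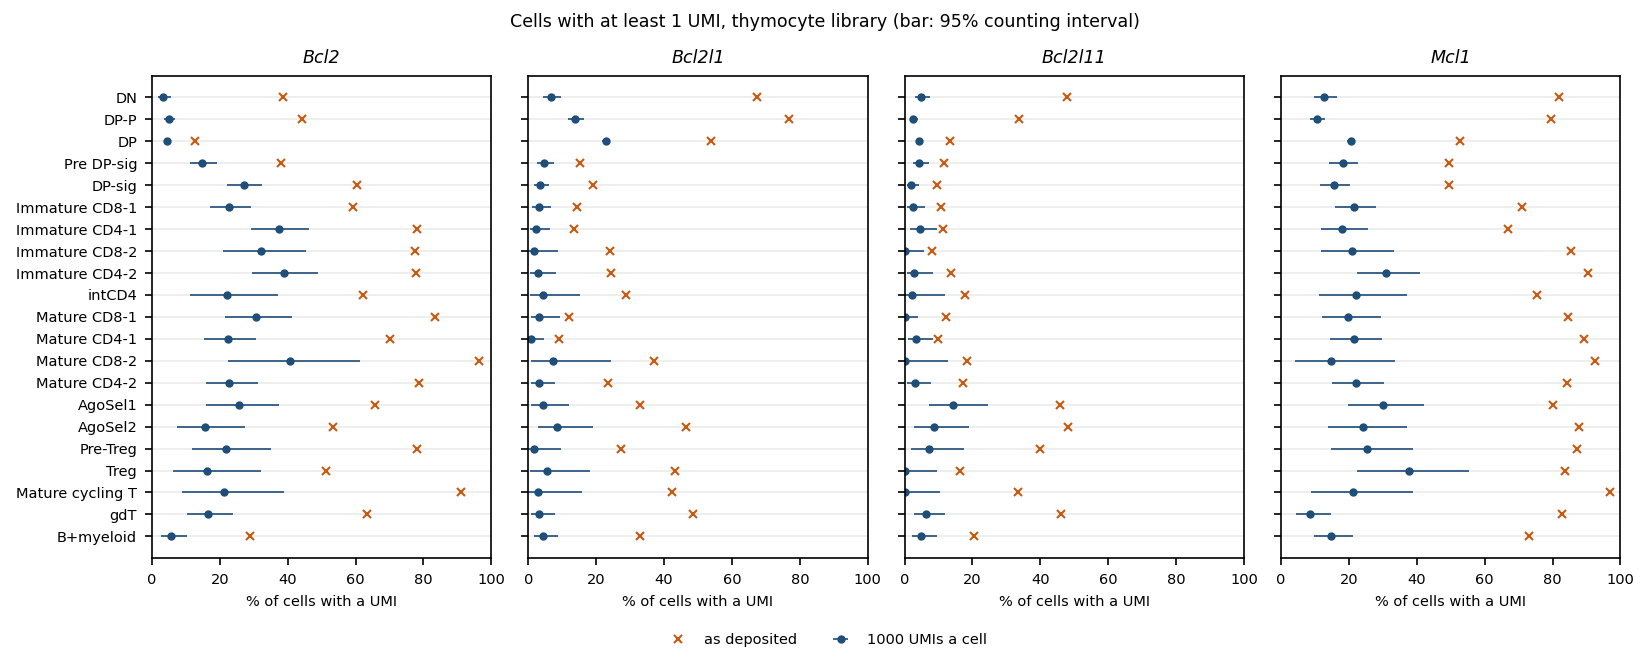
Share of cells with at least 1 UMI (x axis, percent) of Bcl2, Bcl2l1, Bcl2l11 and Mcl1 in the 21 labels of the thymocyte library (y axis). Circles show cells thinned to 1000 UMIs, with exact 95% intervals for counting error, and crosses show the counts as deposited. After thinning, Bcl2l1 is detected in 23.0% of DP cells and 13.9% of DP-P cells.

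Genes of the wider family and of the steps around it were described from lists. Of 11 other BCL2 family genes with enough UMIs, 2 were at least 2-fold higher and 3 lower in mature labels than in DP, where 11.2% of all genes were higher and 19% lower. Their median was -0.64 on the log2 scale, against -0.32 for all genes. Bcl2a1, a pro-survival gene, had 38.3 CPM in the mature labels and 0.74 CPM on 14 UMIs in DP, a ratio of 51.7 (29.8 to 97). The BH3-only genes Bmf, Bik and Pmaip1 (NOXA) were lower, with Bmf at 5.78 against 32.1 CPM and Pmaip1 at 19.8 against 83.7 CPM. Bcl2 and Bcl2a1 were thus both higher in the mature labels. A further gene of that name, Bcl2a1d, was not among the features. Whether RNA of similar genes entered the counts of Bcl2a1 was not tested. In the AgoSel, Pre-Treg and Treg labels Bcl2a1 was 5.19 times (4.26 to 6.35) and Pmaip1 3.71 times (2.77 to 5) the level of the mature labels. Treg had 278 CPM of Bcl2a1, and B+myeloid, with 540.5 CPM, was the only label above it. Treg is also the label with 445 CPM of the B cell gene Cd79a, whose part in this ratio was not tested.

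Of 13 genes of the caspase cascade and its inhibitors, 2 were higher and 1 lower in mature labels than in DP, beside the 30.2% of all genes past 2-fold. Birc3, an inhibitor of apoptosis, had 20.1 against 2.54 CPM. Birc5 (survivin), which also serves in cell division, had 256 CPM in DP-P and 5.82 CPM in DP. Of 14 genes that regulate the family, 7 were higher and 5 lower in mature labels than in DP, beside 11.2% and 19% of all genes. Il7r, the receptor of the survival cytokine interleukin 7, had 317 against 1.27 CPM on 24 UMIs. Foxo1 was 8.35 times the DP level. Nr4a1, an early gene of receptor signalling, had 338 CPM in DP-sig against 24.1 CPM in DP.

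In the stromal library Bcl2 had the widest range of the 7 genes. It had 211 CPM in TEC:early Pr on 2557 UMIs, 196 CPM in TEC:mimetic(tuft), 193 CPM in TMC4, 167 CPM in TEC:cTEC and 139 CPM in TMC3. TEC:mTEC1 had 109 CPM, TMC2 91.5 CPM, TMC1 55.6 CPM and the endothelial labels 29.6 to 73.7 CPM. Myeloid had 16.9 CPM and capFb 14.1 CPM, 14.9-fold below TEC:early Pr (13 to 17.2). Of the 23 pairs of neighbours 5 were apart, among them TMC4 over TEC:cTEC and TEC:cTEC over TMC3. The 5 labels TMC1 to TMC4 and capFb thus covered nearly the whole range of Bcl2. TMC4, the highest of them, carried less of the fibroblast marker Dcn and more Pdgfrb than TMC1.

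**Figure D5:**
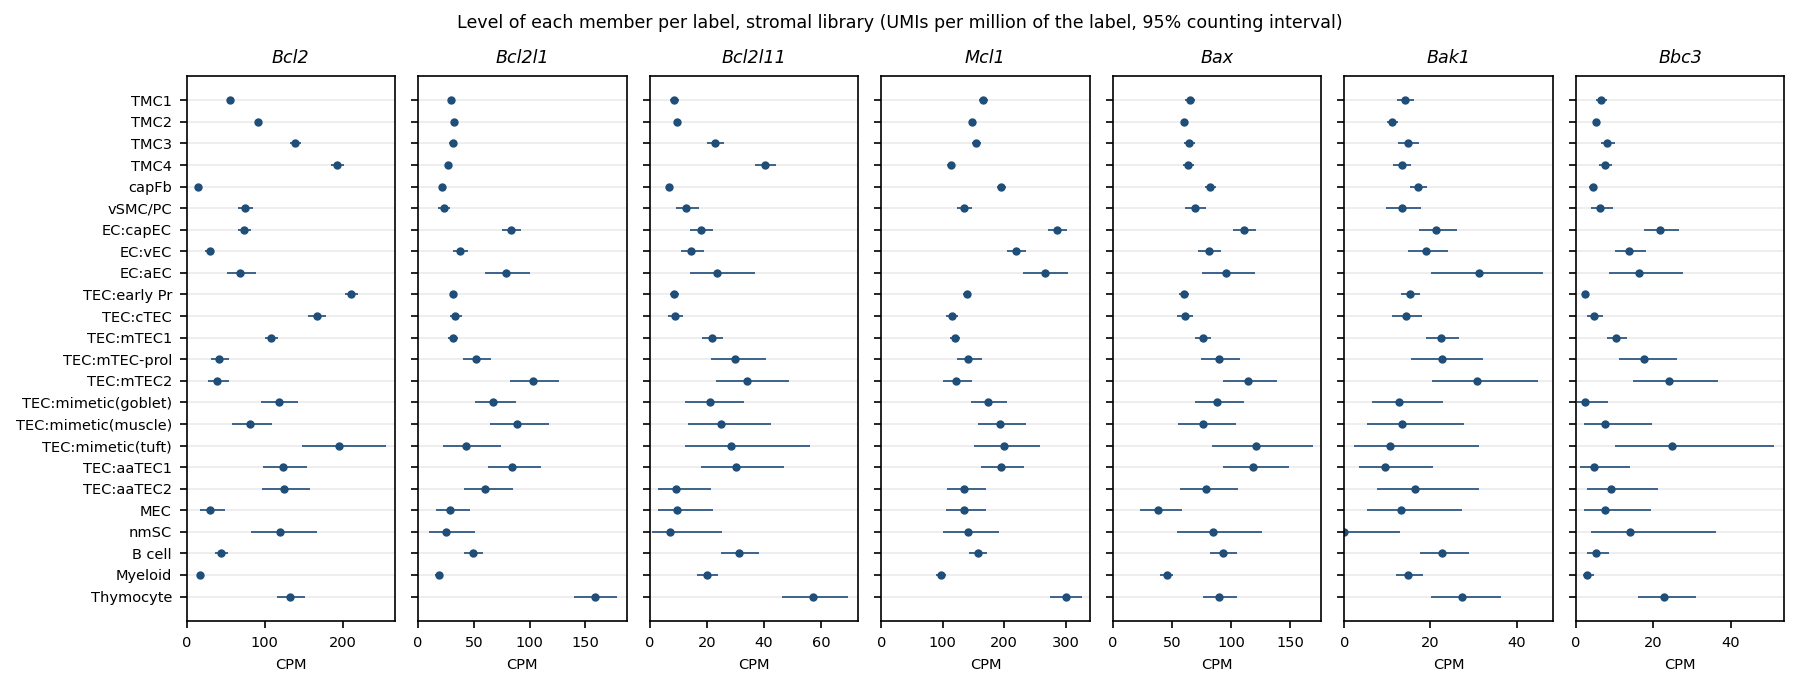
Level of each of the 7 genes (x axis, CPM, a separate scale per gene) in the 24 labels of the stromal library (y axis), with exact 95% Poisson intervals for counting error. Bcl2 is at 211 CPM in TEC:early Pr and 14.1 CPM in capFb, and Bcl2l1 is at 159 CPM in Thymocyte and 103 CPM in TEC:mTEC2.

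Bcl2l1 was highest in the label Thymocyte (159 CPM) and next in TEC:mTEC2 (103 CPM). TEC:mimetic(muscle) had 88.3 CPM, EC:capEC 83.6 CPM and TEC:mTEC1 31.2 CPM, and Myeloid had the lowest level, 18.6 CPM. Only Thymocyte over TEC:mTEC2 was apart among the neighbours. Mcl1 was at 300.2 CPM in Thymocyte, 287 CPM in EC:capEC, 266 CPM in EC:aEC, 220.1 CPM in EC:vEC and 97.1 CPM in Myeloid. The endothelial labels thus came directly after the thymocytes for Mcl1. Their handling genes summed to 7725 to 10560 CPM, against 2626 to 5250 CPM in the TMC and capFb labels. In vSMC/PC these genes summed to 7999 CPM and Mcl1 had 136 CPM. The part of handling was not tested.

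Bcl2l11 had 57.1 CPM in Thymocyte, 40.6 CPM in TMC4, 34.3 CPM in TEC:mTEC2, 22.9 CPM in TMC3 and 6.87 CPM in capFb. Thymocyte over TMC4 was the only pair of neighbours apart. Bbc3 had 24.9 CPM in TEC:mimetic(tuft) on 7 UMIs, 24.0 CPM in TEC:mTEC2, 22.7 CPM in Thymocyte and 21.8 CPM in EC:capEC, against 2.39 CPM in TEC:early Pr. No pair of neighbours was apart for Bbc3 or Bak1. Bax ranged from 38.0 CPM in MEC to 121 CPM in TEC:mimetic(tuft). Bak1 reached 31.2 CPM in EC:aEC and had no UMI in the 39 cells of nmSC. Against the 3 UMIs that a count of 0 allows there, EC:aEC was 2.95-fold higher. The lower limit of this ratio for counting error was 2.23, and it had no upper limit.

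Within the epithelium the labels TEC:mTEC2 and TEC:mTEC1 differed in the levels of Bcl2 and Bcl2l1. Mcl1 was 1.02 times as high in TEC:mTEC2 (0.826 to 1.25). TEC:mTEC2, a label of 61 cells that held 468 CPM of Aire, the regulator of tissue-restricted antigens, had 3 of 7 members past 2-fold against TEC:mTEC1, with a background of 29.7%. Bcl2 had 38.8 against 109 CPM, a ratio of 0.358 (0.246 to 0.505). Bcl2l1 had 103 against 31.2 CPM, a ratio of 3.29 (2.54 to 4.24). Bbc3 had 24.0 against 10.4 CPM, a ratio of 2.3 (1.34 to 3.81). The call of Bbc3 was lost in cells at or above the median UMIs of their label, at 1.99. The labels filled the clusters differently, with 57 of 61 TEC:mTEC2 cells but 232 of 482 TEC:mTEC1 cells in TEC-d. Within TEC-d, Bcl2 had 39.2 CPM in TEC:mTEC2 (27 to 55.1) and 70.5 CPM in TEC:mTEC1 (62.2 to 79.6), which is within 2-fold. Bcl2l1 had 103 CPM (82.8 to 127) and 32.9 CPM (27.4 to 39.3) in these cells. The difference in Bcl2l1 was thus past 2-fold within the cluster too, and that in Bcl2 was not. Bcl2l1 held 39.0% of the pro-survival UMIs in TEC:mTEC2 (32.6 to 45.6) and 8.27% in TEC:early Pr. Bcl2a1, a further pro-survival gene, had 1043 CPM in TEC:mTEC2, 443 CPM in TEC:mTEC-prol and 4.51 CPM in TEC:mTEC1. Pmaip1 had 90.3 CPM in TEC:mTEC2 against 1.87 CPM in TEC:mTEC1.

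TEC:mTEC-prol had 1 of 7 members past 2-fold against TEC:mTEC1, with a background of 21.6%. Bcl2 was 0.384 times as high (0.288 to 0.504), a call that was lost with thinned cells at 0.86 times and in cells below the median UMIs at 0.522 times. Of the TEC:mTEC-prol cells 70 of 76 lay in TEC-d, where Bcl2 had 32.5 CPM in them (23.4 to 43.9) beside the 70.5 CPM of TEC:mTEC1. TEC:cTEC had 2 of 7 past 2-fold, with a background of 15.4%. Bcl2l11 was 0.402 times as high (0.28 to 0.568) and Bbc3 0.443 times (0.263 to 0.72), on 23 UMIs. The call of Bbc3 was lost with the mean of the cells' CPM and with thinned cells, and its ratio was 1.17 in cells below the median UMIs. The cortical marker Psmb11 had 10.4 CPM in TEC:cTEC and Krt5, a basal keratin, 3119 CPM. Both labels spanned several clusters. Bcl2 had 20.4 CPM in the 72 TEC:cTEC cells of the cluster TEC-a against 193 CPM in the 311 of TEC-b. In TEC:mTEC1 it had 70.5 CPM in TEC-d and 167 CPM in TEC-b, where Bcl2l11 had 29.7 and 8.66 CPM. The ratio between the labels TEC:cTEC and TEC:mTEC1 therefore depends on which clusters fill them.

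TMC4, against TMC1 to TMC3 and capFb, had 2 of 7 members past 2-fold, with a background of 24.4%. Bcl2 had 193 against 72.9 CPM, a ratio of 2.65 (2.52 to 2.78). Bcl2l11 had 40.6 against 10.8 CPM, a ratio of 3.74 (3.33 to 4.21). A pro-survival gene and a BH3-only gene were thus both higher in TMC4, while Bax had a ratio of 0.945 (0.873 to 1.02). Birc3 (6.18 times) and Bok (5.13 times), an effector-like member of the family, were also higher. Of the fibroblast markers, TMC4 carried less Dcn but more Pdgfrb than TMC1. Dcn had 2026 CPM in TMC4, 17011 CPM in TMC1 and 1788 CPM in EC:capEC, while Pdgfrb had 534 CPM in TMC4, 82.3 CPM in TMC1 and 26.5 CPM in EC:capEC.

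The remaining stromal classes were set against the 5 TMC and capFb labels, which these comparisons share. All epithelial labels together and vSMC/PC had 0 of 7 members past 2-fold, with backgrounds of 39.5% and 25.2%. The endothelial labels had 2 of 7 with a background of 33.1%, Bcl2l1 at 2.26 times (2.06 to 2.48) and Bbc3 at 2.96 times (2.46 to 3.55). In cells at or above the median UMIs the call of Bcl2l1 was lost, at 1.93. Myeloid had 2 of 7 with a background of 50.9%, Bcl2 at 0.187 times (0.152 to 0.227) and Bbc3 at 0.49 times on 18 UMIs, a call lost in 4 of 10 alternatives. B cell had 2 of 7 with a background of 43.7%, Bcl2 at 0.491 times and Bcl2l11 at 2.05 times, and both calls were lost without the cells of highest UMIs. The label Thymocyte had 4 of 7 with a background of 43.9%, Bcl2l1 at 5.56 times (4.89 to 6.31), Bcl2l11 at 3.76 times, Bbc3 at 3.73 times and Bak1 at 2.00 times. The call of Bak1 was lost in 4 of 10 alternatives, at as low as 1.7 with thinned cells.

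Thymocytes occurred in both libraries, and their levels are set side by side without a comparison, since the preparations differ. Bcl2 had 133 CPM in the stromal label Thymocyte and 119.8 CPM over all thymocyte labels of the thymocyte library. Bcl2l1 had 159 and 131 CPM, Bcl2l11 57.1 and 39.6 CPM, and Mcl1 300.2 and 175 CPM. Bax had 89.8 and 78.8 CPM, Bak1 27.4 and 25.9 CPM, and Bbc3 22.7 and 5.33 CPM. No gap between the 2 preparations, those of Bbc3 and Mcl1 included, is read as a difference between the cells. Blood-derived cells other than thymocytes formed 1 label in the thymocyte library, B+myeloid, where Bcl2 had 63.6 CPM and Mcl1 183 CPM. In the stromal library B cell had 44.5 and 157 CPM of these genes and Myeloid 16.9 and 97.1 CPM.

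The genes most like each member over the 17 thymocyte labels of at least 50 cells were found by Pearson's r of log2(CPM + 1) among 8323 genes with at least 500 UMIs. For Bcl2 they were L3mbtl3 (r of 0.94), St8sia6 (0.92) and Bach2 (0.92), a transcriptional repressor of lymphocytes that reached 1712 CPM in Immature CD4-2. For Bcl2l1 they were Acaa2 (0.87), Inpp4a (0.82) and Acat1 (0.81), all highest in DP, the first and last being mitochondrial enzymes of lipid and ketone metabolism. For Bcl2l11 they were Kdm2b (0.87), Oxsr1 (0.83) and Dld (0.81), all highest in AgoSel1. For Mcl1 they were Mrtfa (0.94), Pacs1 (0.93) and Fam169b (0.93). For Bax they were Rbm19 (0.91), Urb1 and Utp20, all of ribosome assembly, and for Bak1 Selenof (0.84), Rnf138 and Trmt13. Bbc3 was under the minimum of 500 UMIs. By Spearman's rho, 9 of these 18 genes were no longer among the 10 most alike, with Mrtfa at rank 105 and St8sia6 at rank 131. With labels of at least 20 cells 4 of 18 were not, with Acat1 at rank 159, Selenof at 217 and Rnf138 at 350. Between members, r was -0.53 for Bcl2 with Bcl2l1, 0.76 for Bcl2 with Mcl1 and 0.52 for Bcl2l1 with Bcl2l11. With Bak1, r was 0.57 for Bcl2, 0.54 for Bax and 0.46 for Mcl1. The points share 1 library, their depths and the order of the labels in development, so these values are descriptions.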

How the data were processed

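RNA of 1 thymocyte and 1 stromal library of the rat thymus was measured by droplet single-cell sequencing. Per the submitters' processing notes, the authors used Cell Ranger 8.0.0, Seurat 5.3.0 and the genome build mRatBN7.2, and the deposited counts are whole UMIs per gene and cell. The percent of mitochondrial UMIs per cell was deposited by the authors, as were the cell labels, which per the file headers are initial clusters and projected labels. The members, gene lists and marker lists were chosen with earlier results of these data known.

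Counts were summed per label of at least 20 cells and divided by the label's UMIs, giving CPM with exact 95% Poisson intervals. Ratios between groups of labels have exact conditional binomial intervals. A group with fewer than 3 UMIs was set to 3, and a ratio with both groups at or below 3 was left out. Genes tested had at least 20 UMIs over both groups. Shares have exact Clopper-Pearson intervals, and cells were thinned to 1000 UMIs with seed 7. With 1 sample per group there are no p-values, and intervals cover counting error only. The genes named were the 7 members in all labels, list genes past 2-fold, and the 3 genes most like each member. Some list genes are not reported here. No doublet caller was run; leaving out cells above the 99th percentile of UMIs of their label was an alternative. Sums were made in Python 3.11.15 with pandas 2.3.3 and NumPy 2.4.6, intervals with SciPy 1.17.1, and plots with matplotlib 3.10.9. The ratio and call steps were tested on simulated data. Alternatives covered cells kept, averaging, totals, depth, labels and the fold.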

Additional observations from a re-analysis of the deposited data

Results flagged for a closer look

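The stromal library held 2934 barcodes with no annotation, on 8663291 UMIs, which entered none of the comparisons. The members were nevertheless detected in them, above the level that a count of 0 allows. Bcl2 had 97.5 CPM there against 98.3 CPM in the annotated cells. Bcl2l1 had 29.7 CPM against 34.9 CPM, and Bcl2l11 had 19.6 CPM against 16.3 CPM. Mcl1 had 104 CPM against 157 CPM, and Bax had 48.8 CPM against 69.8 CPM. Bak1 had 13.4 CPM against 15.4 CPM, and Bbc3 had 7.27 CPM against 7.07 CPM. In the 28 thymocyte barcodes with no annotation there were 2 UMIs of Mcl1 and 0 of the other members among 27563 UMIs.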

How the results depend on the processing

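Of 242 alternative counts of members past 2-fold, 191 stayed within 1.5 times and 51 did not. The counts for DN against DP-P (0 of 7) became 2 at 1.5-fold, 1 with thinned cells, 2 with the initial cluster as label and 1 below the median UMIs. For DP-P against DP (3) the count was 1 at 3-fold, 1 with thinned cells, 1 with initial clusters and 1 below the median. For the immature labels against DP (2) it was 5 at 1.5-fold. For mature CD4 against CD8 (0) it was 1 at 1.5-fold and 1 both above and below the median. For mature -2 against -1 (1) it was 2 at 1.5-fold and above the median, and 0 at 3-fold, with the reduced totals, with thinned cells and below the median. For the label gdT (4) it was 1 at 3-fold and 1 with thinned cells. For B+myeloid (1) it was 0 at 3-fold and 2 at 1.5-fold, with the mean of the cells' CPM, the reduced totals, thinned cells and above the median.

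Against the TMC and capFb labels, the count for epithelial labels (0) was 1 at 1.5-fold. For endothelial labels (2) it was 5 at 1.5-fold, 0 at 3-fold and 1 above the median. For Myeloid (2) it was 4 at 1.5-fold, 1 at 3-fold and 1 with the reduced totals. For B cell (2) it was 4 at 1.5-fold and below the median, 0 at 3-fold and without cells above the 99th percentile, and 1 with the reduced totals and above the median. For TEC:mTEC2 (3) and TMC4 (2) it was 1 at 3-fold. For TEC:mTEC-prol (1) it was 3 at 1.5-fold, 2 with the mean of the cells' CPM, and 0 at 3-fold, with thinned cells and below the median. For TEC:cTEC (2) it was 4 at 1.5-fold, 1 with the mean of the cells' CPM and below the median, and 0 at 3-fold and with thinned cells. The cause was not tested, except that another fold moves a count by construction.

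Of 1399 alternative ratios 103 lay on the other side of 1, and 3 of these, all of Bbc3, belonged to ratios past 2-fold. The ratio of the label gdT to the mature labels was 1.72 with thinned cells, where the label gdT held 0 UMIs and stood at the floor of 3. That of Myeloid to the TMC and capFb labels was 1.21 with thinned cells, and that of TEC:cTEC to TEC:mTEC1 was 1.17 below the median. Under the alternatives run, the ratio to DP stayed at 5.93 to 7.79 for Bcl2 and at 0.0637 to 0.179 for Bcl2l1 in the mature labels. In the AgoSel, Pre-Treg and Treg labels Bcl2l11 stayed at 4.25 to 7.39 times the mature level, and in TMC4 Bcl2 stayed at 2.29 to 2.68 times. The alternatives on mitochondrial percent, on cells above or below the median UMIs and on shared barcodes were chosen after seeing the data. The planned description of protein sequences was not run. No paired analysis was possible because the samples give 1 library per preparation. Counts of few UMIs limit Bbc3, Bak1 and the labels under 50 cells.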
